A study of Mus musculus with 16 samples.

Results

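miR-22-3p and miR-22-5p are the 2 mature arms of a single hairpin, Mir22. They were taken from small RNA sequencing of C2C12 cells as the rows listed under either name, after text in parentheses and trailing spaces were removed from it. The 2 names stand among 2273 miRNA names in 16 libraries, and 487 distinct sequences were listed under miR-22-3p and 182 under miR-22-5p. C2C12 is a mouse myoblast line whose cells leave the cycle and fuse into myotubes when serum is lowered, and the stock used here is described as PAX7 NEG. Control cells carry the wild-type genotype and come as 2 populations. Triple-knockout cells (tKO) lack miR-206 together with both miR-1a genes (miR-1a-1, miR-1a-2), and come as 2 clones. Each of these 4 lines was sampled in growth medium with 20% FBS (GM) and after 3 days in 2% HS (DM3), with replicates labelled BR1 and BR2, so that each of the 4 groups (Control GM, tKO GM, Control DM3, tKO DM3) holds 4 libraries from 2 lines. Lines are called 1 and 2 within each genotype and the replicates 1 and 2. Since the 4 libraries of a group come from only 2 lines, and each tKO line is 1 clone, the p-values measure the spread between these libraries, which may in part be technical.

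A miRNA hairpin is cut by Drosha and then by Dicer into a duplex of its arms. One arm, the guide, is held by Argonaute and pairs with target mRNAs through its seed, while the other, the passenger, is mostly lost. For miR-22 the 3p arm is the usual guide. miR-22 is abundant in heart and skeletal muscle, where it is known to act in cardiac hypertrophy and in the differentiation of muscle cells. The deleted miR-206 and miR-1a are muscle miRNAs with a seed of their own, which neither miR-22 arm shares.

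The mature sequences from RefSeq (GRCm38.p6) are shown with the seed, bases 2 to 8, in capitals, since they define the members.
miR-22-3p: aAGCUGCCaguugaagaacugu
miR-22-5p: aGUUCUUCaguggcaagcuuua
Of the 1679 mature names in the RefSeq table, no other had the seed AGCUGCC or the seed GUUCUUC. The hairpin is shown with both arms in capitals, to show where they lie in it.
Mir22: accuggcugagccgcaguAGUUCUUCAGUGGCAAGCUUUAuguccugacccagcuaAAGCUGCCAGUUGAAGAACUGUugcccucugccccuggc
The hairpin lies on the plus strand of GRCm38 at chr11:75463716-75463810 and is 95 nt long. The 5p arm covers chr11:75463734-75463755 and the 3p arm chr11:75463772-75463793. In GENCODE M21 the hairpin is the gene Mir22 (ENSMUSG00000065529.1) and lies within exon 2 of both transcripts of its non-coding host gene Mir22hg (ENSMUSG00000085148.1). The same exon is also exon 2 of a transcript of the protein-coding gene Tlcd2 (ENSMUSG00000038217.13), so the host exon belongs to 2 annotated genes.

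The arms were read in forms that differ at the 3′ end. For each arm the main form is shown with those 1 base shorter and 1 base longer, with the last base in capitals, since the results on lengths and tails turn on that base. The lengths count the part that matches the hairpin, without any added base.
miR-22-3p, 21 nt: aagcugccaguugaagaacuG
miR-22-3p, 22 nt: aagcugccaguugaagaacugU
miR-22-3p, 23 nt: aagcugccaguugaagaacuguU
miR-22-5p, 20 nt: aguucuucaguggcaagcuU
miR-22-5p, 21 nt: aguucuucaguggcaagcuuU
miR-22-5p, 22 nt: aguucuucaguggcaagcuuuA
Of 695051 miR-22-3p reads pooled over the libraries, 74.2% were the 22-nt form, which is the mature sequence, 14.4% the 21-nt form and 1.16% the 23-nt form; a 20-nt form, not shown, held 2.16%. Of 24186 miR-22-5p reads, 74.6% were the 21-nt form, 10.8% the 20-nt form and 6.82% the 22-nt form, which is the RefSeq mature sequence. The most frequent miR-22-5p molecule was thus 1 base shorter at its 3′ end than the annotated one, and the most frequent miR-22-3p molecule was the annotated one.

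The libraries held 112792 to 6543570 miRNA reads, and replicate 2 was the deeper of the pair in 8 of 8 lines and media. The deleted miRNAs were low in the libraries labelled tKO. miR-206-3p stood at 837 to 1466 CPM (reads per 1000000 miRNA reads of the library) in Control GM and 19950.5 to 57442 CPM in Control DM3, against 0.808 to 15.5 CPM in tKO GM and 0.960 to 70.9 CPM in tKO DM3. miR-1a-3p stood at 3.67 to 8.96 CPM in Control GM, at 28.5 to 165 CPM in Control DM3, and at no more than 7.36 CPM in any tKO library. All 8 names of a muscle marker list were listed, with a summed level of 1077 to 1625 CPM in Control GM and 23378 to 59885 CPM in Control DM3. The summed level was 133 to 246 CPM in tKO GM and 282 to 1353 CPM in tKO DM3, where the deleted miRNAs are among the 8; miR-208b-3p was at 0 throughout Control DM3. Marker lists of other cell types stayed low: the blood list summed to at most 16.8 CPM, the endothelial list to at most 27.9 CPM, the epithelial list to at most 52.6 CPM and the liver marker to at most 75.5 CPM in any library. miR-6240 and miR-6236 took 35.4% of the reads of the smallest library, tKO DM3 line 1 replicate 1, and 0.555% to 17.1% of the others.

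miR-22-3p was among the abundant miRNAs of every library, between the 10th and the 39th most abundant name, and miR-22-5p was between the 104th and the 183rd. In Control GM miR-22-3p stood at 9865 and 15375.5 CPM in line 1 (replicates 1 and 2) and at 15931 and 21233 CPM in line 2. In tKO GM it stood at 13233 and 12271 CPM in line 1 and at 12309 and 18806.5 CPM in line 2. The tKO GM values all lay within the range of Control GM. In Control DM3 it stood at 7223 and 10316 CPM in line 1 and at 14473 and 19526 CPM in line 2, and in tKO DM3 at 17306 and 20866 CPM in line 1 and at 23535 and 22168.5 CPM in line 2. tKO DM3 had the highest mean, 20969 ± 2674 CPM (SD, n = 4), followed by Control GM with 15601 ± 4647, tKO GM with 14155 ± 3133 and Control DM3 with 12884 ± 5332 CPM. On CPM, tKO DM3 overlapped Control DM3 through a single library, Control DM3 line 2 replicate 2, and it overlapped Control GM. Neighbouring groups in this order overlapped. On TMM-scaled CPM the order of the means was the same, but closer at the top, with 19145 ± 4779 in tKO DM3, 18417 ± 6424 in Control GM, 15682 ± 4635 in tKO GM and 12042 ± 6603 in Control DM3 (SD, n = 4 each), and the highest library was then one of Control GM (25835). Both line 2 libraries of Control DM3 (13296 and 20579) then lay above the lowest library of tKO DM3 (13045).

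miR-22-5p, the passenger, was measured from 35 to 4730 reads per library. It stood at 226 and 613 CPM in line 1 and at 363 and 723 CPM in line 2 of Control GM, and at 435 and 559 CPM in line 1 and 375 and 735 CPM in line 2 of tKO GM. In Control DM3 it stood at 246 and 325 CPM in line 1 and at 296 and 657 CPM in line 2. In tKO DM3 it stood at 310 and 733 CPM in line 1 and at 495 and 753 CPM in line 2. All 4 groups overlapped, and the spread within a group followed the replicate number: replicate 2 was higher than replicate 1 in 8 of 8 pairs of libraries of the same line and medium, by a median of 1.97-fold. For miR-22-3p replicate 2 was higher in 6 of 8 pairs, by a median of 1.34-fold. Line 2 was higher than line 1 in 7 of 8 pairs of the same group and number for each arm, by a median of 1.46-fold for miR-22-3p and 1.26-fold for miR-22-5p. The lines numbered 1 of the 2 genotypes are different cells and share only the number.

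**Figure D1:**
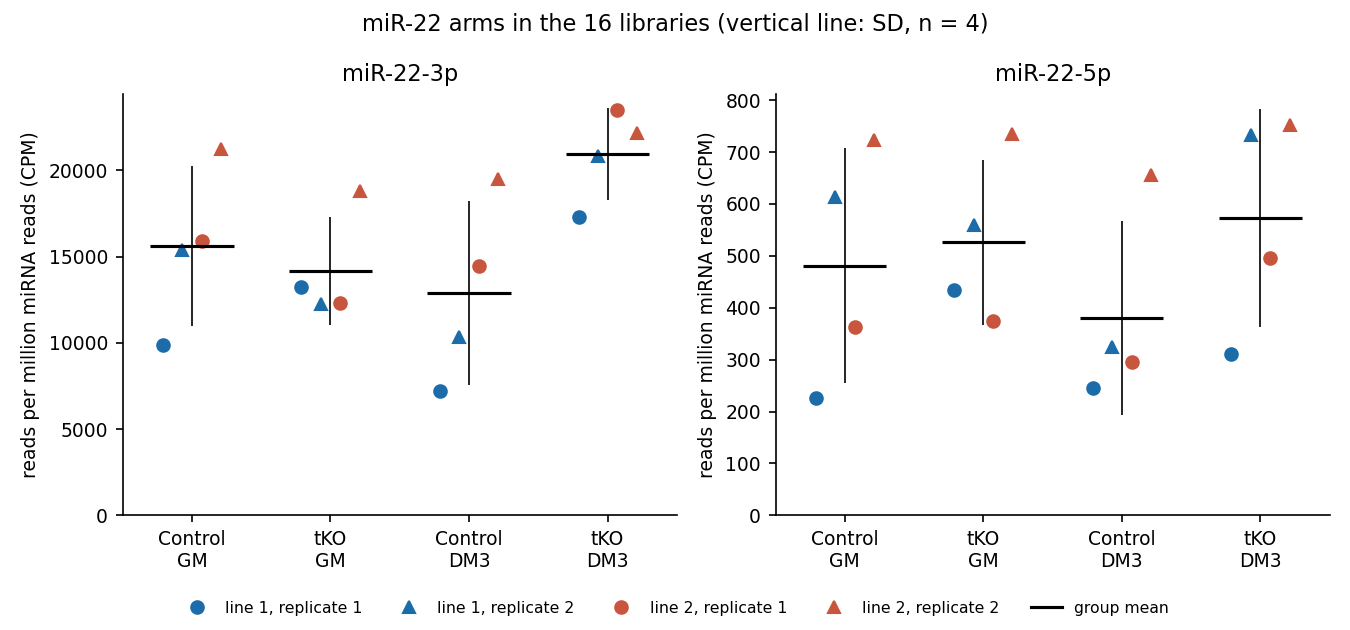
CPM of miR-22-3p (left) and miR-22-5p (right) in each library, by group, with the line in colour and the replicate number by symbol; horizontal bars are means of 4 libraries and vertical lines their SD. The mean of miR-22-3p on this scale is highest in tKO DM3 (17306 to 23535 CPM), and for miR-22-5p the replicate 2 libraries stand above the replicate 1 libraries of the same line.

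Whether loss of the miR-206 family goes with another level of miR-22 was asked in each medium. Neither arm passed the test in either medium, where 1.12% of 807 tested names did in GM (0.496% higher and 0.62% lower in tKO) and 0.867% in DM3 (0.372% and 0.496%) (edgeR quasi-likelihood test, Benjamini-Hochberg adjusted p under 0.05). In GM the log2 fold change of tKO over Control was -0.23 ± 0.38 (SE; 95% interval -1.02 to 0.56; adjusted p = 0.97 in edgeR) for miR-22-3p and 0.01 ± 0.47 (-0.97 to 0.99; adjusted p = 0.99) for miR-22-5p. In DM3 it was 0.67 ± 0.38 (-0.12 to 1.46; adjusted p = 0.49 in edgeR) for miR-22-3p and 0.58 ± 0.47 (-0.41 to 1.56; adjusted p = 0.65) for miR-22-5p. In DM3 the interval of miR-22-3p thus reached from a slight decrease to a log2 fold change of 1.46. When only exact mature sequences were counted, the value for miR-22-5p in DM3 was 1.41 ± 0.43 (adjusted p = 0.060 in edgeR), and that for miR-22-3p 0.78 ± 0.28 (adjusted p = 0.11). The exact form of miR-22-5p was 3.28% of 61, 3.65% of 301, 3.39% of 118 and 4.58% of 1965 reads in Control DM3. In tKO DM3 it was 14.3% of 35, 6.94% of 2291, 8.49% of 365 and 5.41% of 3420 reads. The exact value of miR-22-5p thus rests on few reads in several libraries. Without Control DM3 line 2 replicate 2 the values in DM3 were 1.152 for miR-22-3p and 1.24 for miR-22-5p, neither past the test.

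Differentiation was compared within each genotype. The libraries also differed between media in the make-up of their reads. Among Control libraries, reads under 18 nt were 1.88% to 2.95% of the reads in GM and 4.76% to 12.8% in DM3, and miR-6240 with miR-6236 held 0.555% to 1.60% in GM and 4.85% to 17.1% in DM3. Among tKO libraries the short reads were 2.003% to 6.49% in GM and 2.96% to 18.9% in DM3, and the 2 miRNAs held 0.777% to 5.41% in GM and 1.60% to 35.4% in DM3. Both shares were higher in every Control DM3 library than in any of Control GM. Without the 2 miRNAs 220 names passed in Control and 152 in tKO, against 223 and 159 with them. With sequences of 18 to 25 nt only, the tail share of miR-22-3p, given below, differed by -4.38 points in Control and -2.03 in tKO, against -4.35 and -2.01. Reads under 18 nt were only 0.0271% to 0.256% of the miR-22-3p reads of a library. That filter could therefore hardly change the tail share, and its result does not test the make-up of the libraries. Beyond leaving such reads out, the part of this make-up in the differences between media given here and below was not tested. With all reads counted, neither arm passed the test, where 27.6% of names did in Control (15.9% higher and 11.8% lower in DM3) and 19.7% in tKO (11.4% and 8.3%). In Control the log2 fold change of DM3 over GM was -0.61 ± 0.38 (95% interval -1.41 to 0.18; adjusted p = 0.25 in edgeR) for miR-22-3p and -0.66 ± 0.47 (-1.65 to 0.33; adjusted p = 0.33) for miR-22-5p. In tKO it was 0.29 ± 0.38 (-0.50 to 1.08; adjusted p = 0.66 in edgeR) for miR-22-3p and -0.10 ± 0.47 (-1.08 to 0.89; adjusted p = 0.93) for miR-22-5p. The same line was sampled in both media, so the line pairs the libraries. With the line as a block the value of miR-22-3p in Control was -0.70 ± 0.28 (adjusted p = 0.067 in edgeR), and with a line block and replicate block together it was -0.71 ± 0.24 and passed the test (adjusted p = 0.033). Under both blocks 274 of the 807 names passed in Control, 148 of them higher in DM3, against 223 without blocks. miR-22-5p was at -0.71 ± 0.29 (adjusted p = 0.072 in edgeR) under both blocks. Without Control DM3 line 2 replicate 2, the highest library of its group, the values in Control were -1.08 for miR-22-3p and -1.27 for miR-22-5p.

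The scaling matters for these differences. Under scaling by total counts the median of all names moved from 0.02 to 0.39 in Control and from 0.01 to 0.24 in tKO, and miR-22-3p was then at -0.28 ± 0.29 in Control and at 0.57 ± 0.29 in tKO, neither past the test. Relative to the median of all names, miR-22-3p was lower in DM3 than in GM in Control, and higher in tKO, under both scalings. miR-22-5p was below that median in both genotypes under both scalings, although its own sign in tKO changed, from -0.10 to 0.13.

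The medium was then compared within each line, since the labels give the same lines in both media. The mean log2 ratio of DM3 over GM of miR-22-3p on CPM was -0.51 in line 1 and -0.13 in line 2 of Control, and 0.58 in line 1 and 0.59 in line 2 of tKO. The line means were thus lower in DM3 in both Control lines and higher in both tKO lines, as for 3.35% of the 807 names, and on TMM-scaled CPM likewise (4.09% of names). miR-22-5p was lower in DM3 in both Control lines (-0.40 and -0.22 on CPM, -0.85 and -0.55 on TMM-scaled CPM), but in tKO it was at -0.05 in line 1 and 0.22 in line 2 on CPM, and at -0.41 and 0.02 on TMM-scaled CPM. The libraries of a line are not paired further, because the labels give the replicate number no shared batch. Of the 8 ways to set a DM3 library against a GM library of the same line, miR-22-3p was lower in DM3 in 6 in Control and higher in 8 in tKO on CPM, and lower in 7 and higher in 7 on TMM-scaled CPM. miR-22-5p was lower in 5 in Control and higher in 5 in tKO on CPM, and lower in 6 and higher in 4 on TMM-scaled CPM. When only libraries of the same number were set against each other, miR-22-3p in DM3 was lower in 4 of 4 Control pairs on CPM, and with the numbers crossed in 2 of 4. This difference between the genotypes was noticed in the values, and its test is the interaction in the fit. The interaction of genotype and medium was 0.90 ± 0.53 (95% interval -0.22 to 2.02; adjusted p = 0.94 in edgeR) for miR-22-3p and 0.57 ± 0.66 (-0.82 to 1.96; adjusted p = 0.94) for miR-22-5p. Leaving out each library in turn, the interaction ranged from 0.70 to 1.37 for miR-22-3p and from 0.30 to 1.21 for miR-22-5p, with both highest values without Control DM3 line 2 replicate 2. No name passed for the interaction (0%), 37 names had an unadjusted p under 0.05 in edgeR and 39 in DESeq2, and the unadjusted p of miR-22-3p was 0.11 in edgeR and 0.023 with the line as a block (adjusted p = 0.77).

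The ratio of the arms needs no scaling between libraries. Pooled over the libraries, miR-22-3p had 28.7 reads for each miR-22-5p read, which placed miR-22 50th by dominance among 230 hairpins with both arms measured, whose median was 4.69. The ratio in Control GM was 43.6 and 25.1 in line 1 and 43.9 and 29.4 in line 2. It was 30.4 and 21.95 in line 1 and 32.8 and 25.6 in line 2 of tKO GM. In Control DM3 it was 29.4 and 31.8 in line 1 and 48.8 and 29.7 in line 2, and in tKO DM3 55.8 and 28.5 in line 1 and 47.5 and 29.4 in line 2. The groups overlapped in every comparison.

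On the log2 scale the ratio was 0.33 lower in tKO than in Control in GM (4.77 ± 0.26 against 5.10 ± 0.41, SD, n = 4 each) and 0.18 higher in DM3, with two-sided exact permutation p = 0.26 and p = 0.69 (adjusted over 4 comparisons 0.51 and 0.91). Between DM3 and GM it differed by -0.02 in Control (exact permutation p = 0.97) and by 0.49 in tKO (p = 0.20, adjusted 0.51). The smallest p this test can give is 0.029. With libraries exchanged only within a replicate number, the exact permutation p between media in tKO was 0.056, the smallest possible there (0.22 adjusted over 4 comparisons). Without tKO DM3 line 1 replicate 1, which has 35 miR-22-5p reads, the difference between genotypes in DM3 was 0.0061 and that between media in tKO 0.32. With only exact mature sequences counted, which for miR-22-5p is the 22-nt form, the direction turned: tKO was at -0.89 against Control in DM3, and DM3 at 0.90 against GM in Control (exact permutation p = 0.029 and 0.057 adjusted over 4 comparisons for each). These ratios rest on few miR-22-5p reads. The exact form was 3.28% to 4.58% of 61 to 1965 reads of the arm in Control DM3. In tKO DM3 it was 5.41% to 14.3% of 35 to 3420 reads. In a limma fit over the 230 hairpins miR-22 did not pass in any of these comparisons, with adjusted p from 0.28 to 0.99, while 0.435% of hairpins passed in tKO against Control in GM, none in DM3 (0%; 30 at an unadjusted p under 0.05), 17.8% in Control on differentiation and 13.5% in tKO. None passed for the interaction (0%; 6 at an unadjusted p under 0.05).

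The clearest order in the arm ratio was that of the replicate numbers. In replicate 1 the ratio ranged from 29.4 to 55.8 with a median of 43.7, and in replicate 2 from 21.95 to 31.8 with a median of 28.9. It was lower in replicate 2 in 7 of 8 pairs, Control DM3 line 1 being the exception (29.4 and 31.8). The mean log2 difference of replicate 2 from replicate 1 was -0.55 ± 0.33 (SD, 8 pairs). Of the 230 hairpins, 27 (11.7%) were less dominated by their major arm in replicate 2 in at least 7 of 8 pairs, and the median difference over hairpins was 0.00. Replicate 2 was also the deeper library in each pair, and the part of depth in this difference was not tested. The difference appears within lines of both genotypes and in both media.

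**Figure D2:**
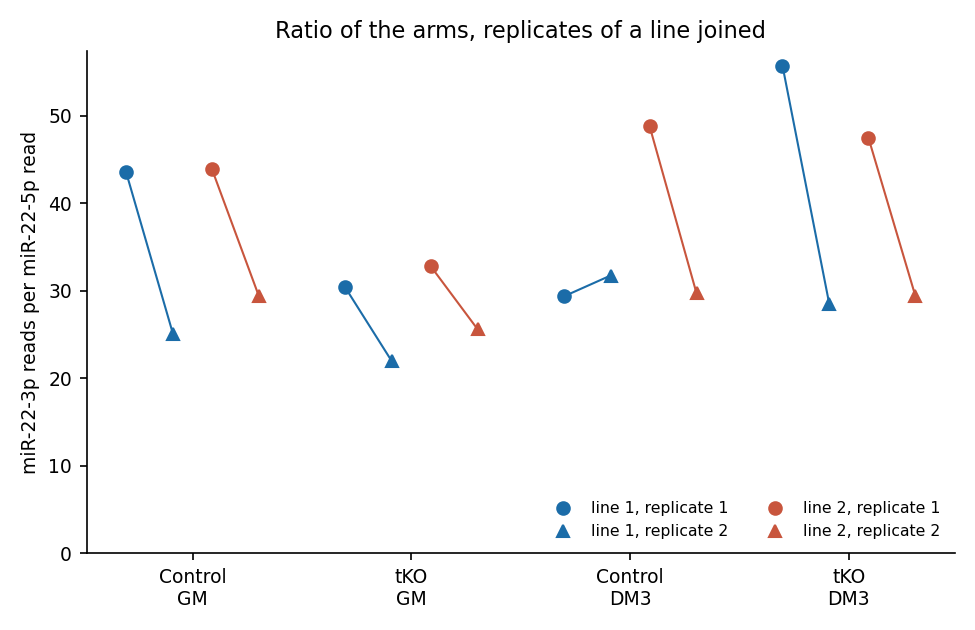
Reads of miR-22-3p per read of miR-22-5p in each library, by group; lines join replicates 1 and 2 of the same line. The ratio falls from replicate 1 to replicate 2 in 7 of 8 pairs, from a median of 43.7 to one of 28.9.

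Nearly all reads of both arms shared the mature 5′ end, so that the seed was the same in nearly all of them: 99.7% of miR-22-3p reads and 99.3% of miR-22-5p reads started at the first mature base. The 3′ end varied. The deposited tables list for each sequence the reads with 1 or 2 added 3′ bases. The rule by which these bases were called is not given in the sources used here. They were taken as non-templated tails. Such tails were on 18.7% of miR-22-3p reads and on 12.5% of miR-22-5p reads, below the median of 32.3% over 387 names with at least 1000 reads. C was the most frequent added base, on 11.3% of miR-22-3p and 9.55% of miR-22-5p reads, which placed the arms 23rd and 59th of the 387 names for C tails (median 2.63%). A tails were on 5.35% and 1.22% of the reads.

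Most C and G tails sat on the form 1 base shorter than the main one. For miR-22-3p the 21-nt form carried 88.7% of the C tails and 86.1% of the G tails, but its A tails were split between the 21-nt form (43.2%) and the 22-nt main form (44.8%). For miR-22-5p the 20-nt form carried 91.6% of the C tails, 74.3% of the G tails and 70.3% of the A tails. Of the 21-nt miR-22-3p form, 94.4% of reads carried a 1-base tail, of which 73.6% were C, 17.03% A, 9.32% G and 0% U. Of the 20-nt miR-22-5p form, 94.2% carried one, of which 86.2% were C, 8.48% A, 5.30% G and 0% U. The next hairpin base after both forms is U, and lies within the arm in capitals above, so an added U there cannot be told apart from the longer templated form. Reads of the shorter forms with 1 added base have the length of the main form but another last base. Among reads of the main forms tails were rare, on 3.49% of the 22-nt miR-22-3p form, of which 92.4% were A, and on 0.333% of the 21-nt miR-22-5p form.

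The share of miR-22-3p reads with a tail was 22.9% and 21.3% in line 1 and 19.01% and 18.1% in line 2 of Control GM. In Control DM3 it was 15.1% and 15.0% in line 1 and 16.4% and 17.3% in line 2. All 4 DM3 libraries were below all 4 GM libraries of Control, a difference of -4.35 percentage points (16.0% ± 1.1 against 20.3% ± 2.2, SD, n = 4 each; two-sided exact permutation p = 0.029, the smallest possible; 0.15 adjusted over 32 tests of read ends). The same order held for 37.2% of 148 names with a RefSeq mature sequence and at least 20 reads in every library, so it was frequent among miRNAs. In tKO the share was 19.2%, 20.5%, 18.4% and 18.6% in GM and 14.4%, 18.7%, 16.99% and 18.6% in DM3, which overlap, and differed by -2.01 points (exact permutation p = 0.14). Within lines the tail share was lower in DM3 in both genotypes, by a mean of -7.02 points in line 1 and -1.68 in line 2 of Control and of -3.28 and -0.74 points in tKO. The line 1 values include G tails, described below. In Control line 1 these were on 5.34% and 4.43% of miR-22-3p reads in GM and on 1.45% and 0.816% in DM3. DM3 was lower in 8 of 8 pairs of libraries of the same line in Control and in 7 of 8 in tKO. With the medium permuted within lines, a test added after these values were seen, the exact permutation p was 0.056 in Control, the smallest this design can give, and 0.11 in tKO (0.18 and 0.25 adjusted over 16 tests). Whether this difference between media differs between the genotypes was not tested. Between genotypes the tail share differed by -1.13 points in GM and by 1.21 points in DM3 (exact permutation p = 0.37 for each). Leaving out each library in turn, these differences ranged from -2.52 to -1.09 points between media in tKO, from -1.88 to -0.28 between genotypes in GM and from 0.70 to 2.13 in DM3. A tails were on 4.92% to 7.15% of miR-22-3p reads in GM and on 2.51% to 5.07% in DM3, and C tails on 10.4% to 12.2% and on 9.21% to 12.2%.

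The lengths of miR-22-5p were compared next. Its mean length overlapped between the groups in all 4 comparisons (exact permutation p = 0.086, 0.43, 0.26 and 0.97). The share of reads of 22 nt, the annotated mature length, is given here by length alone, with mismatched reads included, and so lies above that of the exact form: pooled over libraries 7.69% of reads were of 22 nt and 79.8% of 21 nt. The 22-nt share was 7.76% and 7.45% in line 1 and 9.0% and 7.65% in line 2 of Control GM, and 4.92% and 4.65% in line 1 and 3.39% and 5.50% in line 2 of Control DM3. In tKO it was 11.2%, 8.31%, 9.17% and 9.20% in GM and 14.3%, 7.46%, 9.32% and 6.40% in DM3. Control DM3 lay below each of the other groups without overlap. Reads of 21 nt, counted in the same way, stood at 81.5% to 86.4% in Control DM3, 78.1% to 81.1% in Control GM and 74.2% to 80.3% in tKO DM3. The 21-nt share was not tested, and how often other names show such an order was not measured. The difference in the 22-nt share was -3.35 percentage points for Control DM3 against Control GM and 4.75 points for tKO DM3 over Control DM3 (exact permutation p = 0.029 for each; 0.15 adjusted). Of the 148 names, 12.2% had a share of their mature length that was lower in all Control DM3 than in all Control GM libraries, and 3.38% one that was higher in all tKO DM3 than in all Control DM3 libraries. The replicate 1 values in DM3 rest on few reads of the arm, 61 and 118 in Control and 35 and 365 in tKO. Without tKO DM3 line 1 replicate 1 the difference between genotypes in DM3 was 3.11 points, and with only libraries of at least 100 reads of the arm it was 3.22 points (exact permutation p = 0.10, 0.32 adjusted). Over all 32 tests of read ends, 6 pairs of groups did not overlap, 6 reached the smallest p of 0.029, and none had an adjusted p under 0.05. Over the same measures and comparisons of the 148 names, 15.8% of 2368 pairs of groups did not overlap, against these 6 of 32. The other 3 concern the 5′ end: the share of miR-22-3p reads at the mature start was 99.7% to 99.8% in GM and 99.3% to 99.7% in DM3, differing by -0.19 points in Control and -0.24 in tKO, and that of miR-22-5p was 0.71 points higher in tKO DM3 than in Control DM3 (0.40 points with at least 100 reads of the arm, exact permutation p = 0.10). The -0.24 points include tKO DM3 line 1 replicate 1, whose miR-22-3p start share was 99.28%, against 99.62% to 99.68% in the others of its group. Start shares without overlap were found for 23% of the 148 names (lower in DM3 in Control), 14.9% (lower in DM3 in tKO) and 1.35% (higher in tKO than in Control in DM3). Between media in Control the start share of miR-22-5p differed by -0.59 points, with overlap. Within lines it was lower in DM3 in 8 of 8 pairs in Control and in 2 of 8 in tKO. With the medium permuted within lines, the exact permutation p in Control was 0.056, the smallest possible (0.18 adjusted over 16 tests). This order in Control rests in part on few reads of the arm. In line 1 replicate 1 the start share was 100% of 116 reads in Control GM and 98.36% of 61 reads in Control DM3. In Control DM3 line 2 replicate 1 it was 99.15% of 118 reads. How often other names show this order within lines was not measured. With 2 lines against 2 lines as the units, no exact test could go below p = 0.33.

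The 23-nt form of miR-22-3p, extended by the templated U, was examined after the length tables had been seen, so it is given without a test. Among miR-22-3p reads without a mismatch, the share that extends past the mature end was 1.36%, 1.73%, 1.71% and 1.65% in Control GM and 1.31%, 1.54%, 1.07% and 1.67% in tKO GM. It was 0.776%, 0.801%, 0.943% and 0.687% in Control DM3 and 0.503%, 0.514%, 0.611% and 0.665% in tKO DM3. All 8 DM3 libraries were thus below all 8 GM libraries. Among 54 names measured in the same way, all DM3 libraries were below all GM libraries for 46.3% in Control and for 31.5% in tKO, so the pattern was frequent among miRNAs. The tKO DM3 libraries were also all below those of Control DM3, as for 14.8% of the 54 names, while in GM the genotypes overlapped (all tKO libraries lower for 1.85% of names).

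**Figure D3:**
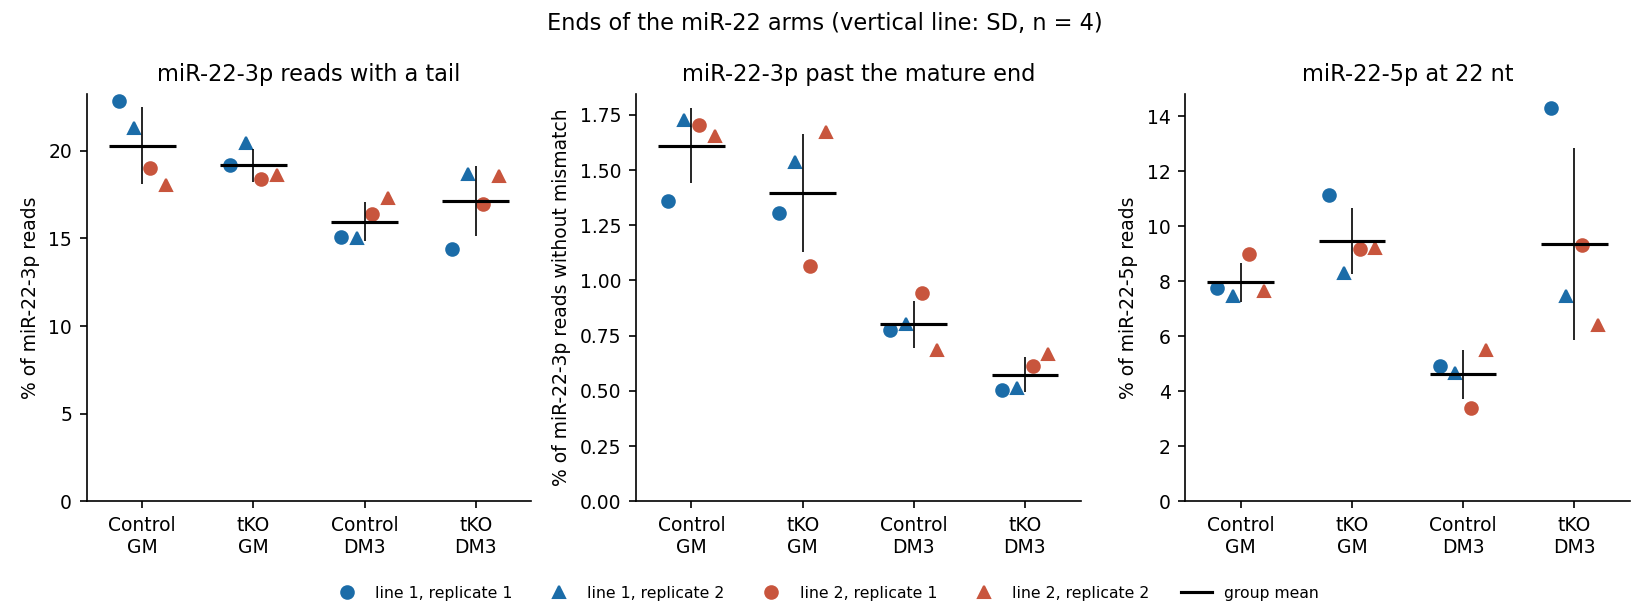
Share of miR-22-3p reads with a tail (left), share of mismatch-free miR-22-3p reads that extend past the mature end (middle) and share of miR-22-5p reads of 22 nt, mismatched reads included (right), in each library by group; horizontal bars are means of 4 libraries and vertical lines their SD. Control DM3 lies below Control GM without overlap in all 3 panels.

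G tails set a few libraries apart. On the 21-nt form of miR-22-3p a G was added on 26.3% and 23.2% of reads in Control GM line 1 and on 12.9% in tKO GM line 1 replicate 1, and on 4.16% to 9.82% in the other 13 libraries. The same libraries had the highest G tails on other miRNAs: the median over other names with at least 100 such 21-nt reads was 4.16% and 2.80% in Control GM line 1 and 1.92% in tKO GM line 1 replicate 1, against 0.565% to 1.41% in the other 13. The libraries with the most G on miR-22-3p were thus those with the most G on other names. They enter the Control GM and tKO GM values of the tail share given above. The within-line differences between media in line 1 of each genotype include these G tails and were not recomputed without them. G tails were on 5.34% and 4.43% of all miR-22-3p reads in Control GM line 1 and on 2.16% in tKO GM line 1 replicate 1, against 0.682% to 1.59% in the other 13 libraries. With tails of 1 G left out, a count added after these values were seen, the tail share of miR-22-3p was 16.9% to 18.2% in Control GM and 13.6% to 16.4% in Control DM3, still without overlap, and the difference was -2.54 points in place of -4.35 (exact permutation p = 0.029, 0.15 adjusted). Between genotypes in GM the difference then turned from -1.13 to 0.37 points (exact permutation p = 0.74).

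**Figure D4:**
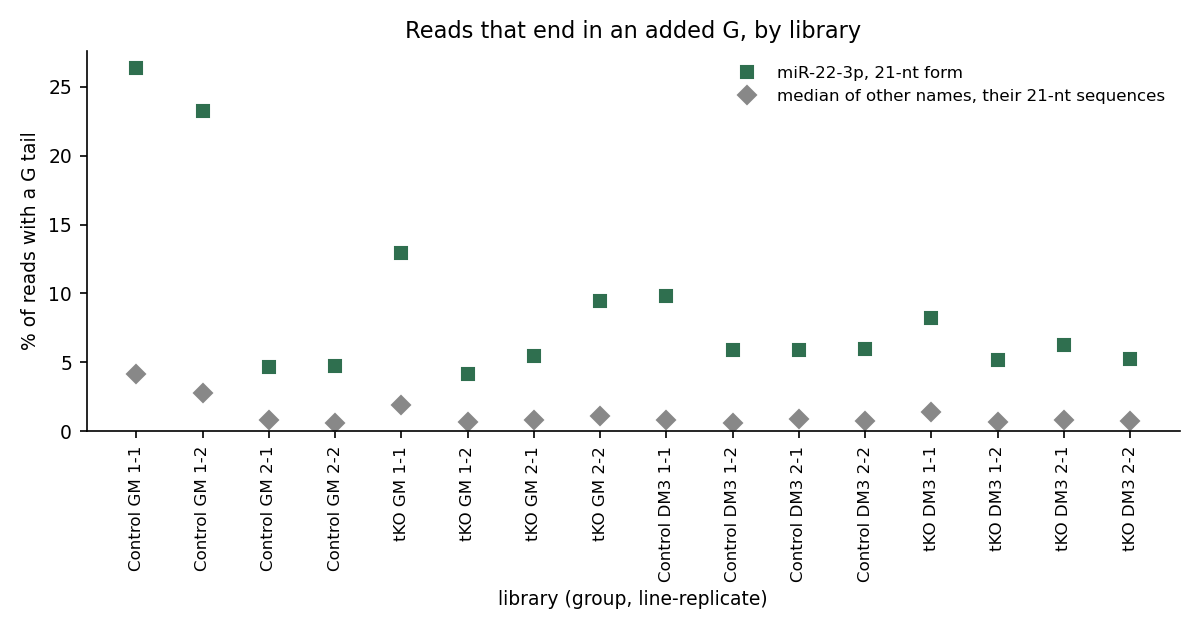
Share of reads with an added G on the 21-nt form of miR-22-3p (squares) and the median share over other names' 21-nt sequences (diamonds) in each library. Both are highest in the libraries of Control GM line 1, at 26.3% and 23.2% for miR-22-3p and at 4.16% and 2.80% for the other names.

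Mismatches were alike in both arms, on 7.11% of miR-22-3p reads and 6.65% of miR-22-5p reads. A-to-G changes made up 47.1% of the substituted miR-22-3p reads and 34.9% of those of miR-22-5p. The first base, counted from 1 at the mature 5′ end, was read as A1G in 1.17% of the reads of each arm. Among 67 names that start with A, the median was 1.16%, and the arms ranked 33rd and 32nd, close to the middle of these names. By library the A1G share of miR-22-3p ranged from 1.02% to 1.77%.

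The names whose TMM-scaled level was most like that of miR-22-3p over the 16 libraries, among 246 others with a mean of at least 100 CPM, were miR-26a-5p (Pearson r = 0.90), miR-30b-5p (0.90), miR-196b-5p (0.86), miR-22-5p (0.84) and miR-151-5p (0.84), against a median of 0.15. For miR-22-5p they were miR-196b-5p (0.91), miR-143-3p (0.90), miR-30a-3p (0.90), miR-26a-5p (0.89) and miR-151-5p (0.88), and miR-22-3p ranked 9th. These correlations describe 16 libraries in which lines and depth are shared by all names. In deviations from the group means they ranged from 0.85 to 0.93. miR-26a-5p, miR-196b-5p and miR-151-5p stand on both lists.

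A list of 22 miRNAs known from myoblast proliferation or differentiation, outside the deleted family, gives the surroundings. None of the 22 passed in tKO against Control in either medium, where 1.12% of all tested names did in GM and 0.867% in DM3. In DM3 miR-133a-3p was at -2.13 (edgeR adjusted p = 0.098) and miR-133b-3p, its close relative, at -2.29 (adjusted p = 0.071) in tKO against Control on the log2 scale. On differentiation 3 of the 22 rose and 5 fell among the Control libraries, whereas 4 rose and 3 fell among those of tKO. Over all tested names 15.9% rose and 11.8% fell in Control, and 11.4% rose and 8.3% fell in tKO. The median log2 fold change of the list was -0.23 in Control and 0.15 in tKO, beside 0.02 and 0.01 over all names. miR-133a-3p, made from the same clusters as the miR-1 family and a marker of differentiation, rose by 6.99 in Control and 6.29 in tKO on the log2 scale (edgeR adjusted p = 8.75e-06 and 3.18e-05), and miR-378a-3p, made from an intron of Ppargc1b, rose by 0.86 and 1.13. miR-221-3p, which is high in cycling myoblasts, fell by 2.06 and 1.39.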

How the data were processed

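Small RNA was prepared with the NEBNext Small RNA kit and size-selected on a gel, per the labels' protocols. The submitters' processing notes name cutadapt 1.15, STAR 2.5.4 and the build mm10; their roles and settings are not given in the sources used here. The deposited tables are named as output of unitas, whose version is not given in the sources used here. Per the file headers they list sequences with a miRNA name, total reads and reads with added 3′ bases. The deposited values are expected counts: most are whole and some are fractions, and no normalization by the authors is recorded. Reads were summed per name and library and rounded. Of 2510 listed names 237 were merged into the name they equal without copy number or arm, or with the letter a added. Neither miR-22 name was affected.

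All 16 libraries entered a fit in edgeR 4.0.16 (R 4.3.3): filterByExpr by group (807 names), TMM scaling, robust quasi-likelihood tests, 1 coefficient per group. Arm ratios, log2 of reads with 0.5 added, were tested over 230 hairpins in limma 3.58.1 (both arms at 10 reads or more in at least 4 libraries) and for miR-22 by exact permutation. Shares of an arm were used where it had at least 20 reads. The fits were tested on simulated data. Wilson 95% intervals and floors of 3 counts (0.458 to 26.6 CPM) cover counting error only, and no molecular identifiers are recorded. Alternatives included DESeq2 1.42.0, other scalings, filters, blocks and counting rules. The members, lists, named miRNAs (the 5 most correlated with each arm) and tests were chosen with earlier results of these data known.

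The same line was sampled in both media, per the labels, and on those labels the line pairs these libraries. Deviations from group means over 247 names correlated by 0.23 on average between media within a line (16 pairs, -0.31 to 0.65).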

Additional observations from a re-analysis of the deposited data

Results flagged for a closer look

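In 5 of 44 groups of 4 libraries tested for an outlying library, where chance flags about 1 in 20, a library stood apart by Dixon's ratio of its gap to the group's range. miR-22-3p was at 18806.5 CPM in tKO GM line 2 replicate 2, against 12271 to 13233 CPM in the others of its group. The share of miR-22-3p reads at the mature start was 99.74% in tKO GM line 1 replicate 1, against 99.81% to 99.82%, and 99.28% in tKO DM3 line 1 replicate 1, the smallest library, against 99.62% to 99.68%. The mean length of miR-22-5p was 20.94 nt in tKO GM line 1 replicate 2, against 20.96 nt in the others. The log2 arm ratio was 5.60 in Control DM3 line 2 replicate 1, against 4.86 to 4.99.

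The mean log2 ratio of DM3 over GM of miR-22-3p on CPM was negative in 2 of 2 Control lines and positive in 2 of 2 tKO lines, with means that differ by 0.90. Of the 8 pairs of a DM3 and a GM library of the same line, 2 in Control went the other way and 0 in tKO. The edgeR interaction test of this difference did not pass (adjusted p = 0.94).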

How the results depend on the processing

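Of 246 values of log2 fold changes under the alternatives, 232 kept their direction and side of the threshold. The value of miR-22-3p in DM3 against GM in Control passed only with a line block and replicate block together (-0.71, edgeR adjusted p = 0.033, and 0.033 to 0.61 over all its alternatives). At that setting 274 of 807 names passed, against 223 without blocks. The replicate block alone changed no call: miR-22-3p was at -0.20 and 0.70 in tKO against Control (GM, DM3) and at -0.62 and 0.27 in DM3 against GM (Control, tKO). The labels do not say that a replicate number marks a shared batch, and deviations of libraries with the same number correlated by 0.10 on average (48 pairs, -0.61 to 0.69). The line block alone, the comparison of lines library by library, the medium permuted within lines (no adjusted exact permutation p under 0.18 in read ends or 0.44 in the arm ratio), the count without G tails and the extension share were chosen after seeing the data. miR-22-5p, near 0, changed sign in DM3 against GM in tKO with total counts (0.13), replicates of a line summed (0.12), no mismatches (0.052), 18 to 25 nt only (0.012) and replicate number 2 alone (0.17). In tKO against Control in GM it did so with no filter (-0.042), replicates summed (-0.30) and replicate number 2 alone (-0.39), and miR-22-3p with replicate number 1 alone (0.040). With exact mature sequences only, the log2 arm ratio was at -0.89 in tKO against Control in DM3 and at 0.90 in DM3 against GM in Control (exact permutation p = 0.029 for each). Both rest on few miR-22-5p reads, since its exact form was at most 4.58% of 61 to 1965 reads in Control DM3. With tails of 1 G left out, the tail share of miR-22-3p in tKO against Control in GM was at 0.37 points. In DM3 against GM in tKO, the mean length of miR-22-5p was at -0.027 nt with at least 100 reads and -0.0040 nt at 18 to 25 nt, its tail share at 0.82 points with at least 100 reads, and its 22-nt share at 0.26 points without mismatches. The start share of miR-22-3p in tKO against Control in GM was at 0.0031 points without mismatches. The cause of these changes was not tested.

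Leaving out each library in turn turned the sign of values near 0. The log2 arm ratio in DM3 against GM in Control ranged from -0.19 to 0.099; in tKO it ranged from 0.32 to 0.64, and in tKO against Control in DM3 from 0.0061 to 0.35. In tKO against Control in GM, ranges were -0.22 to 0.26 (miR-22-5p log2 fold change), -0.0031 to 0.017 nt (miR-22-3p mean length), -0.017 to 0.0079 and -0.13 to 0.15 points (start shares of miR-22-3p and miR-22-5p) and -0.94 to 0.28 points (miR-22-5p tails). In DM3 against GM in tKO they were -0.39 to 0.18 (miR-22-5p log2 fold change), -0.012 to 0.0043 and -0.027 to 0.019 nt (mean lengths of miR-22-3p and miR-22-5p), -1.73 to 0.90 points (miR-22-5p at 22 nt) and -1.62 to 0.82 points (miR-22-5p tails). In tKO against Control in DM3 the start share of miR-22-3p ranged from -0.10 to 0.036 points.

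Names called over all alternatives ranged from 2 to 20 in tKO against Control in GM, from 1 to 74 in DM3 (53 without tKO DM3 line 1 replicate 1, 19 in DESeq2), from 74 to 274 in DM3 against GM in Control, from 74 to 210 in tKO, and from 0 to 1 for the interaction. The shares of miR-22-5p rest on as few as 35 reads, in the smallest library.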
